A study of Mus musculus with 3 samples.

Results

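Mammary stem and progenitor cells of the mouse are commonly recognised by a small set of surface proteins and 1 enzyme, and 9 genes of that set are described here: Cd44, Cd24a, Aldh1a3, Prom1, Ly6a, Ly6d, Kit, Procr and Plet1. They are a named list, and all 9 were present among the 20605 genes of the deposited single-cell table. The cells came from primary mammary tumours of 4 FVB mice carrying the C3(1)-Tag transgene, in which viral large T antigen is expressed in the mammary epithelium; the mice were 25 to 30 weeks old and the tumours measured 20 mm. Fresh tumour cells were embedded either in collagen I, a fibrillar matrix, or in Matrigel, a basement membrane extract, and were taken 12 h after plating (called day 0 here) or after 3 or 5 days. Both matrices received the same serum-free DMEM/F12 medium with insulin, transferrin and selenium and 2.5 nM FGF2. Cells were released from collagen with 2 mg/ml collagenase at 37 °C and from Matrigel with 10 mM EDTA on ice, so the matrix and the release cannot be told apart. The mice, the matrices and the 4T1 mouse mammary tumour line, grown on plastic, were marked with MULTI-seq barcodes, sorted for live cells and pooled into 1 droplet library per day. Each day is therefore also 1 pool and 1 labelled batch, and a difference between days cannot be told apart from a difference between pools.

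The table held 7620 cells and 269987304 unique molecular identifiers (UMIs, each standing for 1 captured RNA molecule), with a median of 31767 UMIs per cell. Of 7307 cells labelled by mouse, 332 fell in macrophage-, fibroblast-, T and NK cell- or dendritic cell-like clusters and were left out. UMIs of the others were summed per mouse, matrix and day wherever at least 20 cells were present, which gave 21 sums of 38 to 1149 cells and 1831436 to 46683629 UMIs. At day 5 there were 3 mice in collagen and 2 in Matrigel, since mouse 4 had no day 5 cells and mouse 1 had 13 cells in Matrigel. The summed level of 8 luminal epithelial genes ranged from 2791 to 6144 UMIs per 1000000 in the sum (CPM) in collagen. In Matrigel it ranged from 3130 to 7562 CPM, and all 8 were detected in every group. CPM of the members in the sums was taken after TMM scaling of the totals. CPM of marker lists, clusters and other cell classes was taken without it. The pools shared 11 cell barcodes. Clusters of few UMIs held 875 of the kept cells, and they were most frequent in mouse 4 at day 0, with 137 of 229 cells in collagen and 340 of 629 cells in Matrigel. A further 55 mouse-labelled cells lay in clusters of 4T1 cells.

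CD44 is the receptor for the matrix polysaccharide hyaluronan, and CD24 is a small lipid-anchored glycoprotein; combinations of both are used to sort mammary stem-enriched cells, and CD24 also marks luminal against basal cells in the mouse gland. ALDH1A3 makes retinoic acid from retinaldehyde, KIT is the receptor for stem cell factor, PROM1 (CD133) is a pentaspan protein of membrane protrusions, and PLET1 is a lipid-anchored protein of progenitor cells. Kit and Aldh1a3 mark luminal progenitors, and Prom1 in the mouse gland marks mostly hormone-sensing luminal cells. LY6A (Sca-1) and LY6D are small lipid-anchored proteins of the Ly6 family. PROCR is the endothelial protein C receptor, which binds activated protein C and marks rare basal stem cells of the mouse mammary gland.

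In the GENCODE annotation of GRCm38 the members were protein-coding genes on 6 chromosomes. Plet1 (ENSMUSG00000032068) lay at chr9:50494525-50505482 on the plus strand, Kit (ENSMUSG00000005672) at chr5:75574916-75656722 on the plus strand and Prom1 (ENSMUSG00000029086) at chr5:43993620-44102032 on the minus strand. Cd44 (ENSMUSG00000005087) lay at chr2:102811141-102901665 on the minus strand and Procr (ENSMUSG00000027611) at chr2:155751117-155755471 on the plus strand. Aldh1a3 (ENSMUSG00000015134) lay at chr7:66390890-66427517 on the minus strand and Cd24a (ENSMUSG00000047139) at chr10:43578284-43584265 on the plus strand. Ly6d (ENSMUSG00000034634) at chr15:74762056-74763620 and Ly6a (ENSMUSG00000075602) at chr15:74994877-74998031 both lay on the minus strand. Ly6a has close relatives in the Ly6 family and Cd24a has processed copies in the genome, so how the counting split reads between them is uncertain.

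The 250 bases before the RefSeq start are shown for Plet1, Kit and Cd44, which carry called differences below, and for Procr, whose level varied most between mice; they are RefSeq sequences of GRCm38.p6, and 5 of the 9 members were matched in the table used here. Capitals mark matches, on either strand, to any of 5 motifs. These were the AP-1 motif TGANTCA, the antioxidant response element core TGACNNNGC, the gamma-activated site TTCNNNGAA, the core of the interferon-stimulated response element and the retinoid receptor half-site AGGTCA. The windows were chr9:50494275-50494524 (plus strand) for Plet1, chr2:155750967-155751216 (plus strand) for Procr, chr2:102901666-102901915 (minus strand) for Cd44 and chr5:75574737-75574986 (plus strand) for Kit.
Plet1: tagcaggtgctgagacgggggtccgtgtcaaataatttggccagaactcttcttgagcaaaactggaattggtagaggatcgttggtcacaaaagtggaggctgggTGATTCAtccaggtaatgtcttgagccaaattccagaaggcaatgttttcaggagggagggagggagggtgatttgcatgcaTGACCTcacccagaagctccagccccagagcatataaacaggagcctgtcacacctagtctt
Procr: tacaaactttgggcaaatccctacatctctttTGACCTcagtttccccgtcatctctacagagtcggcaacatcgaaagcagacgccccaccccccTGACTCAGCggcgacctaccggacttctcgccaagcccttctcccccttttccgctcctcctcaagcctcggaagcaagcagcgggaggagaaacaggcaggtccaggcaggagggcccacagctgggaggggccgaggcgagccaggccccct
Cd44: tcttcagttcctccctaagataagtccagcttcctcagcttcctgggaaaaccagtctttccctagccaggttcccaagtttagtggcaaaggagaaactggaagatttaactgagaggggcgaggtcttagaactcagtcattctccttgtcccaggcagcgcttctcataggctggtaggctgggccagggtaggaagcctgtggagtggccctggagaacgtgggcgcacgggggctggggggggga
Kit: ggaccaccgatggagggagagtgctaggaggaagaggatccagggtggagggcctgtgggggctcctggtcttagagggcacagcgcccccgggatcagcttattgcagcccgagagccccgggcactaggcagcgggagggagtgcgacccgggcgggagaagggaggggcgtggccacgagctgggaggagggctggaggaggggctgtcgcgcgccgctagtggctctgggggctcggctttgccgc

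Plet1 held an AP-1 match beginning at -144 and a retinoid half-site match at -62, counted from the start with the base before it as -1. Procr held an AP-1 match and an antioxidant response element core that overlap at -154, and a half-site match at -218. The windows of Cd44 and Kit held none of the 5 letter patterns. Among 32536 mouse promoter windows of this length, 6.73% held the AP-1 letters, 10.2% the antioxidant core, 7.04% the gamma-activated site, 2.98% the interferon-stimulated core and 14.0% the half-site. A match is a run of letters and not a measured binding site.

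All 9 members passed the expression filter, together with 13184 genes in all, and edgeR's quasi-likelihood test was run on the summed counts with Benjamini-Hochberg adjustment over those genes and a threshold of 0.05. Between collagen and Matrigel, 1 member differed at day 0 (Plet1, lower in collagen), where 7.06% of all genes were called. No member was called at day 3 (0.205% of all genes) or at day 5 (0.463%); at an unadjusted p under 0.05 there were 2 at day 3 (9.87% of all genes) and 1 at day 5 (12.0%), and DESeq2 called 0 at day 3 (1.37% of all genes) and 1 at day 5 (1.99%). Within collagen, 1 member changed between day 0 and day 3 (Kit, lower, with 19.5% of all genes called; 2 by DESeq2, with 22.7% of all genes) and none between day 3 and day 5 (1.15%; 2 at an unadjusted p under 0.05, with 12.2% of all genes, and 1 by DESeq2, with 3.63% of all genes). Within Matrigel, 3 members changed between day 0 and day 3 (Plet1 and Aldh1a3 lower, Ly6a higher), against 39.1% of all genes, and none between day 3 and day 5 (2.5%; 2 at an unadjusted p under 0.05, with 16.9% of all genes, and 0 by DESeq2, with 4.16% of all genes). The matrix difference itself changed between day 0 and day 5 for 1 member (Cd44, 1.15% of all genes called) and between day 0 and day 3 for none (0.0379%; 4 at an unadjusted p under 0.05, with 10.9% of all genes, and 1 by DESeq2, with 1.24% of all genes).

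The comparison within Matrigel between day 0 and day 3 thus called a share of members close to that of all genes. The same mice were cultured in both matrices, and sums of the same mouse deviated together, so a second edgeR model included the mouse as a block. It called 3, 0 and 2 members between collagen and Matrigel at days 0, 3 and 5, against 24.3%, 4.44% and 6.27% of all genes. Over time it called 4 members in collagen between day 0 and day 3 (37.7% of all genes) and 2 between day 3 and day 5 (10.6%). In Matrigel it called 6 between day 0 and day 3 (54.8%) and 2 between day 3 and day 5 (12.7%). For the change of the matrix difference it called 3 between day 0 and day 3 (5.3%) and 4 between day 0 and day 5 (13.6%). Values from this fit are given below wherever it changed a member's call.

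**Figure D1:**
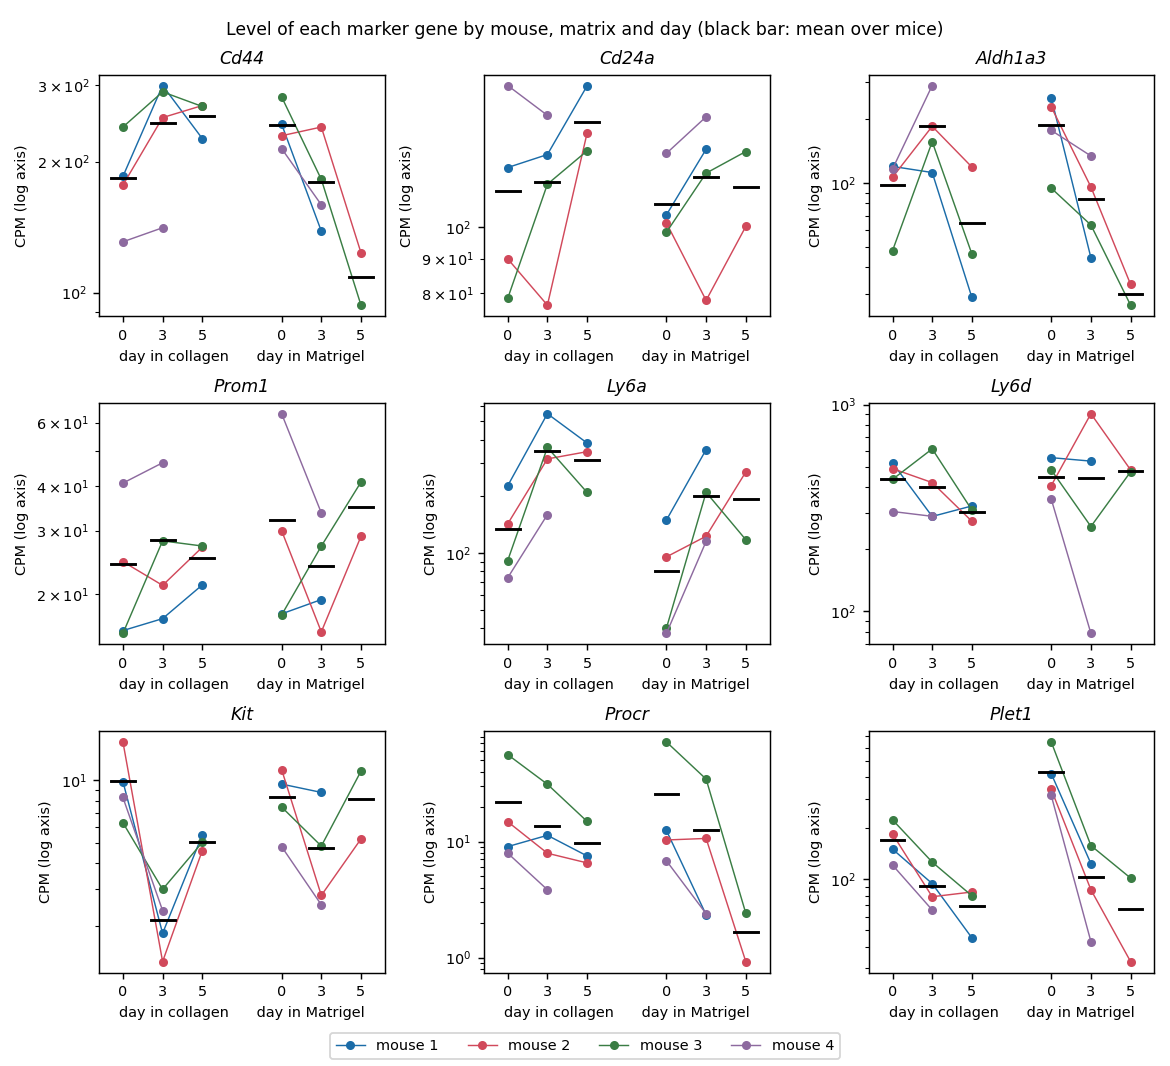
Level of each of the 9 members (CPM, log axis) in each sum, with collagen left of Matrigel at days 0, 3 and 5; points are mice, lines join the sums of 1 mouse and black bars are group means. Plet1 at day 0 is lower in all 4 collagen sums (121 to 225 CPM) than in all 4 Matrigel sums (313 to 649 CPM), and mouse 3 stands above the other mice for Procr at day 0.

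Plet1 was lower in collagen than in Matrigel at day 0, and no matrix difference was called later. At day 0 it stood at 151, 185, 225 and 121 CPM in collagen in mice 1 to 4, against 421.5, 340.5, 649 and 313 CPM in Matrigel. The groups did not overlap, which held for 13.9% of all genes, and each mouse was lower in collagen, at 0.346 to 0.544 of its Matrigel level. The group means were 171 ± 44.6 CPM in collagen and 431 ± 153 CPM in Matrigel (SD, n = 4 each). The log2 fold change of collagen over Matrigel was -1.34 (SE 0.38, edgeR adjusted p = 0.0384; 0.000698 with the mouse as a block). The call was lost without mouse 1 (adjusted p = 0.197), mouse 2 (0.145) or mouse 3 (0.0753), each with log2 fold changes between -1.25 and -1.48. It was also lost without the clusters of few UMIs (-1.29 (log2), adjusted p = 0.0529) and with all mouse-labelled cells (-1.31 (log2), adjusted p = 0.0503).

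The 8 luminal epithelial markers stood lower with it at day 0, at 5256, 6144, 5012 and 4303 CPM in collagen in mice 1 to 4, against 7518, 7562, 5787 and 6266 CPM in Matrigel. Their part in the Plet1 difference was not tested.

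In a sum, fewer cells that express a gene and less RNA of it per cell cannot be told apart. The share of cells with at least 1 UMI was also taken per mouse, after thinning each cell to 2000 UMIs, and such a share moves with both. For Plet1 at day 0 this share was 23.9%, 29.0%, 32.9% and 22.8% in collagen, against 45.3%, 42.2%, 53.2% and 43.3% in Matrigel. All 4 collagen shares lay below all 4 Matrigel shares (exact two-sided permutation p = 0.0286, the smallest that 4 against 4 can give; Benjamini-Hochberg adjusted p = 0.441 over the 27 member and day tests). Without thinning the mean shares were 59.5% in collagen and 76.8% in Matrigel. In macrophage-like cells of the same pools, which served as a measure of free RNA, 1 of 175 thinned cells (0.571%) had a Plet1 UMI (exact binomial 95% interval 0.0140 to 3.14%, counting error only); their median depth before thinning was 14382 UMIs.

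Over time Plet1 fell in Matrigel. It stood at 124, 86.7, 158 and 42.8 CPM in Matrigel at day 3 in mice 1 to 4, all below the day 0 values (log2 fold change of day 3 over day 0 -2.08, SE 0.39, edgeR adjusted p = 0.000354). Each of the 4 mice was lower, at 0.137 to 0.294 of its day 0 level, and the groups did not overlap, as for 30.4% of all genes. The median summed level of the luminal epithelial markers in Matrigel was 4658 CPM at day 3 and 6892 CPM at day 0, and its part in this change was not tested. In collagen the day 3 values were 94.3, 78.9, 126 and 65.9 CPM, lower than at day 0 in 4 of 4 mice, but the groups overlapped. That fold change was -0.90 (log2, SE 0.37, adjusted p = 0.102; 0.00406 with the mouse as a block). At day 5 Plet1 stood at 45.1, 84.1 and 79.9 CPM in collagen in mice 1 to 3, against 32.6 and 102 CPM in Matrigel in mice 2 and 3, and the collagen range lay inside the Matrigel range. The change of the matrix difference was +1.18 (log2) by day 3 (adjusted p = 0.426; 0.0314 with the block) and +1.41 by day 5 (adjusted p = 0.271; 0.0118 with the block).

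Kit fell in collagen between day 0 and day 3. It stood at 9.88, 15.3, 6.26 and 8.28 CPM in collagen at day 0 and at 1.84, 1.34, 2.99 and 2.36 CPM at day 3. These levels rest on few molecules, 8 to 82 Kit UMIs per sum. All 4 mice were lower at day 3, at 0.0876 to 0.478 of the day 0 level, and the groups did not overlap, as for 23.2% of all genes. The log2 fold change was -2.24 (SE 0.40, edgeR adjusted p = 0.000641), and it was -1.75 (adjusted p = 0.0095) without the clusters of few UMIs, 2 of which had the Kit levels of 26.5 and 24.0 CPM. At day 5 Kit stood at 5.46, 4.60 and 5.03 CPM in collagen, above every day 3 value (17.4% of all genes did not overlap), with a log2 fold change of day 5 over day 3 of +1.25 (SE 0.41, adjusted p = 0.171; 0.0436 with the block).

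In Matrigel Kit stood at 9.61, 11.3, 7.45 and 4.80 CPM at day 0, at 8.76, 2.80, 4.83 and 2.52 CPM at day 3, and at 5.23 and 11.1 CPM at day 5 in mice 2 and 3. It was lower at day 3 than at day 0 in 4 of 4 mice, but the ranges overlapped (-0.96 (log2), SE 0.40, adjusted p = 0.0649; 0.0279 with the block). At day 3 Kit was lower in collagen than in Matrigel in 4 of 4 mice, at 0.210 to 0.938 of the Matrigel level (-1.02 (log2), adjusted p = 0.403), and the groups overlapped. The thinned share of cells with a Kit UMI was 3.67% ± 0.595 in collagen and 1.51% ± 1.08 in Matrigel at day 0 (SD, n = 4 each; exact permutation p = 0.0571). At day 3 it was 0.656% ± 0.285 in collagen and 1.45% ± 0.686 in Matrigel (SD, n = 4 each). In macrophage-like cells the share was 0.571%, which rests on 1 of 175 cells. That is too few to say whether the share in either matrix stands above background. Without thinning, 11.5% of cells in collagen and 12.5% in Matrigel had a Kit UMI at day 0.

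The Aldh1a3 level in collagen stood below that in Matrigel at day 0 and above it at day 3 in each of the 4 mice, and neither difference passed the adjusted threshold. At day 0 it stood at 119.6, 106, 47.9 and 116 CPM in collagen, against 252, 228, 94.5 and 177 CPM in Matrigel, so that each mouse was at 0.466 to 0.657 of its Matrigel level. At day 3 it stood at 112, 185, 156 and 288 CPM in collagen, against 44.4, 95.7, 63.3 and 134 CPM in Matrigel, so that each mouse was at 1.93 to 2.52 times its Matrigel level. The ranges of the groups overlapped on both days, since mouse 3 was low in both matrices at day 0 and mouse 4 high in both at day 3. The log2 fold changes of collagen over Matrigel were -0.94 at day 0 (SE 0.43, edgeR adjusted p = 0.188; 0.0407 with the block) and +1.11 at day 3 (SE 0.43, adjusted p = 0.366; 0.0591 with the block). The change between them was +2.05 (log2, SE 0.61, adjusted p = 0.208; 0.0166 with the block).

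The luminal epithelial markers, given above with Plet1, were also lower in collagen in 4 of 4 mice at day 0. At day 3 their median was 4810 CPM in collagen and 4658 CPM in Matrigel, and their part in the Aldh1a3 values was not tested.

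Within Matrigel Aldh1a3 fell between day 0 and day 3 (log2 fold change -1.14, SE 0.43, edgeR adjusted p = 0.0430), in 4 of 4 mice, with overlapping ranges. The call was lost without mouse 1 (-0.76 (log2), adjusted p = 0.213), mouse 2 (adjusted p = 0.135) or mouse 3 (adjusted p = 0.0628), with all mouse-labelled cells (0.0567), with the dendritic cell-like cells kept (0.0507) and without the expression filter (0.0516). In collagen the day 3 level was above the day 0 level in 3 of 4 mice (+0.92 (log2), SE 0.43, adjusted p = 0.143; 0.0386 with the block). At day 5 Aldh1a3 stood at 28.9, 119 and 46.2 CPM in collagen, against 33.2 and 26.5 CPM in Matrigel, with overlapping ranges. That was lower than at day 3 in 3 of 3 mice in collagen (-1.51 (log2), SE 0.48, adjusted p = 0.150; 0.0191 with the block) and in 2 of 2 in Matrigel (-1.51 (log2), SE 0.59, adjusted p = 0.193). The change of the matrix difference between day 0 and day 5 was +2.06 (log2, adjusted p = 0.165; 0.0308 with the block). The thinned share of cells with an Aldh1a3 UMI was 12.2% ± 4.05 in collagen and 21.0% ± 7.97 in Matrigel at day 0, and 19.2% ± 4.53 in collagen and 12.5% ± 3.16 in Matrigel at day 3 (SD, n = 4 each; exact permutation p = 0.114 and 0.0571). In macrophage-like cells it was 0.571%.

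Prom1, Cd24a and Ly6d showed no called difference in any of the 9 comparisons, with or without the mouse block. Prom1 averaged 24.2 ± 11.8 CPM in collagen and 32.2 ± 21.8 CPM in Matrigel at day 0, 28.2 ± 13.0 CPM in collagen and 23.9 ± 8.05 CPM in Matrigel at day 3 (SD, n = 4 each). At day 5 it averaged 25.1 ± 3.41 CPM in collagen (SD, n = 3) and 34.95 ± 8.52 CPM in Matrigel (SD, n = 2). Mouse 4 had the highest Prom1 level in each of the 4 groups it was part of, with 40.7 CPM in collagen and 63.6 CPM in Matrigel at day 0, and 46.4 CPM in collagen and 33.6 CPM in Matrigel at day 3. Of its day 0 cells, 137 of 229 in collagen and 340 of 629 in Matrigel lay in clusters of few UMIs. At day 3 these were 5 of 117 in collagen and 15 of 377 in Matrigel. The part of those clusters in the Prom1 levels was not tested. Cd24a stayed within a narrow range, from 76.9 to 162 CPM in collagen and from 78.1 to 145 CPM in Matrigel over all days. The log2 fold change of Cd24a between the matrices was +0.06 at day 0 (SE 0.23), -0.03 at day 3 (SE 0.23) and +0.32 at day 5 (SE 0.30). The thinned share of cells with a Cd24a UMI averaged 22.7% in collagen and 21.6% in Matrigel at day 0, against 2.86% in macrophage-like cells.

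Ly6d stood at 523, 490.4, 435 and 304 CPM in collagen at day 0 in mice 1 to 4, against 554, 406, 483.5 and 349 CPM in Matrigel, with overlapping ranges. At day 3 it stood at 288, 419.9, 611 and 288 CPM in collagen, against 533, 904, 257.5 and 78.4 CPM in Matrigel. The 4 Matrigel mice of day 3 thus covered more than the whole collagen range, mouse 2 being the highest and mouse 4 the lowest. At day 5 the level was 324, 273 and 309 CPM in collagen and 484 and 473 CPM in Matrigel, and the groups did not overlap (-0.66 (log2), SE 0.57, adjusted p = 0.724). At day 5, 5 members had groups that did not overlap (Cd44, Cd24a, Prom1, Ly6d and Procr), a pattern that 35.6% of all genes showed with 3 against 2 mice.

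The matrix difference of Cd44 changed between day 0 and day 5. In collagen it stood at 185, 177, 240.1 and 131 CPM at day 0, at 299, 252, 289 and 141 CPM at day 3, and at 226, 269 and 268 CPM at day 5. In Matrigel it stood at 244, 229, 282 and 214 CPM at day 0, at 138, 240.1, 182 and 159 CPM at day 3, and at 123 and 93.5 CPM at day 5 in mice 2 and 3. Collagen was thus lower in 4 of 4 mice at day 0, higher in 3 of 4 at day 3 and higher in 2 of 2 at day 5, where the groups did not overlap. The log2 fold changes of collagen over Matrigel were -0.40 at day 0 (SE 0.22, edgeR adjusted p = 0.275), +0.45 at day 3 (SE 0.22, adjusted p = 0.513) and +1.23 at day 5 (SE 0.30, adjusted p = 0.0707; 0.00475 with the block). DESeq2 called the day 5 difference (adjusted p = 0.00361).

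The change of the Cd44 matrix difference between day 0 and day 5 was +1.63 (log2, SE 0.37, edgeR adjusted p = 0.0382; 0.00141 with the block). The call was lost without mouse 1 (adjusted p = 0.130), mouse 2 (0.268) or mouse 3 (0.394), with log2 values of 1.73, 1.83 and 1.52. Between day 0 and day 3 the change was +0.85 (log2, adjusted p = 0.297; 0.0416 with the block). Within Matrigel Cd44 was lower at day 3 than at day 0 in 3 of 4 mice (-0.43 (log2), adjusted p = 0.131; 0.0344 with the block) and lower at day 5 than at day 3 in 2 of 2 mice (-0.73 (log2), adjusted p = 0.185; 0.0128 with the block, and 0.0434 without mouse 4). The thinned share of cells with a Cd44 UMI at day 5 was 37.6%, 40.4% and 37.7% in collagen, against 21.6% in mouse 2 and 2.70% in mouse 3 in Matrigel (exact permutation p = 0.10, the smallest that 3 against 2 can give). The Matrigel shares rest on 51 and 37 thinned cells. Without thinning the mean shares were 96.2% in collagen and 95.1% in Matrigel. The thinned share of cells with a Cd44 UMI was 25.1% in macrophage-like cells and 10.9% in 4T1 cells. Both Matrigel shares at day 5 lay below the macrophage-like share. Whether that share is Cd44 of the macrophage-like cells themselves or free RNA was not tested, so it is not used as a background. The day 5 Matrigel levels of 123 and 93.5 CPM in mice 2 and 3 rest on 401 and 194 Cd44 UMIs.

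**Figure D2:**
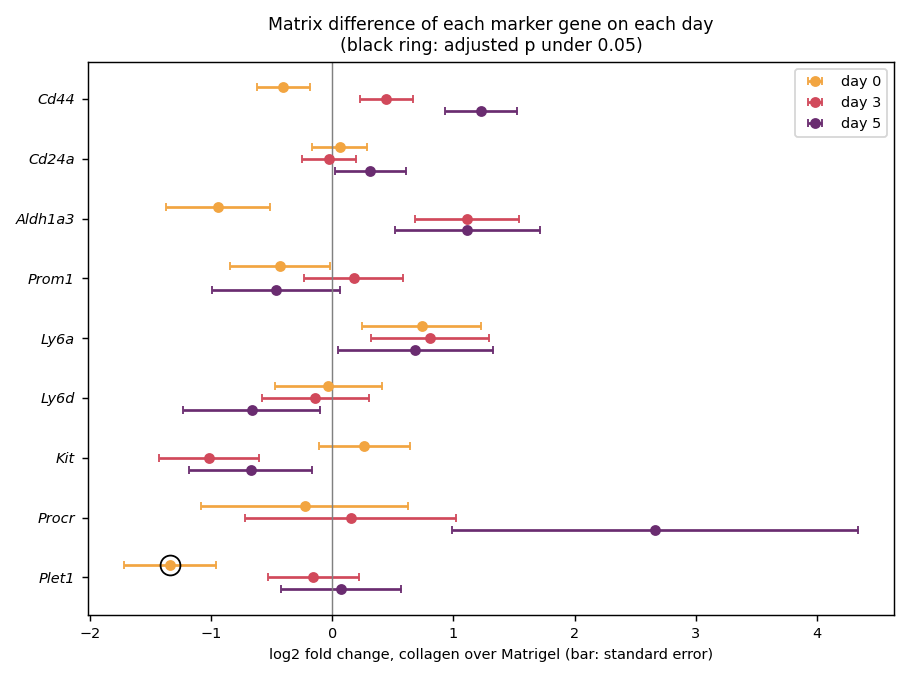
Log2 fold change of collagen over Matrigel for each member at days 0, 3 and 5, with bars of 1 SE from edgeR; a ring marks an adjusted p under 0.05. The only ring is on Plet1 at day 0 (-1.34). Cd44 stands below 0 at day 0 (-0.40) and above 0 at day 5 (+1.23).

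Ly6a was higher at day 3 than at day 0 in all 4 mice of both matrices. In collagen it stood at 227.5, 143, 91.2 and 73.8 CPM at day 0, at 549, 316, 363 and 159.8 CPM at day 3, and at 384, 345 and 209.6 CPM at day 5. In Matrigel it stood at 149.5, 95.3, 39.9 and 37.4 CPM at day 0, at 354, 123, 209.9 and 115 CPM at day 3, and at 269 and 118 CPM at day 5. The ranges of day 0 and day 3 overlapped in both matrices, and mouse 1 was the highest in each of the 5 groups that held it. The rise passed the threshold in Matrigel (log2 fold change +1.30, SE 0.50, edgeR adjusted p = 0.0441) and missed it in collagen (+1.37, SE 0.49, adjusted p = 0.0581; 0.000268 with the block). The Matrigel call was lost without mouse 2 (adjusted p = 0.0985), mouse 3 (0.206) or mouse 4 (0.0520) and without the clusters of few UMIs (0.0551), while the collagen value passed without mouse 4 (0.0471). The courses in the 2 matrices were not shown to differ, the change of the matrix difference between day 0 and day 3 being +0.07 (log2, SE 0.69, adjusted p = 0.989).

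Between the matrices Ly6a was higher in collagen in 4 of 4 mice at day 0, by 1.50 to 2.28 times, in 4 of 4 at day 3, by 1.39 to 2.57 times, and in 2 of 2 at day 5, by 1.28 to 1.78 times. The groups overlapped on every day, and the log2 fold changes were +0.74 at day 0 (SE 0.49, edgeR adjusted p = 0.392; 0.0254 with the block), +0.81 at day 3 (SE 0.49, adjusted p = 0.653) and +0.69 at day 5 (SE 0.64, adjusted p = 0.750). The thinned share of cells with a Ly6a UMI averaged 15.8% in collagen and 8.97% in Matrigel at day 0, 31.2% in collagen and 18.2% in Matrigel at day 3, and 30.8% in collagen and 21.8% in Matrigel at day 5. In macrophage-like cells it was 22.9%. Other cells carried the gene too: T and NK cell-like cells had 2322 CPM, fibroblast-like cells 399 CPM and macrophage-like cells 349 CPM, against 5.29 CPM in 4T1 cells. In the sums the 5 detected T and NK cell markers together reached at most 1.74 CPM and stood at 0 at day 5. The summed level of the 7 fibroblast markers was 8.50 to 30.4 CPM in collagen and 2.73 to 18.9 CPM in Matrigel, and its part in the Ly6a difference was not tested.

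Procr at days 0 and 3 differed more between mice than between matrices. At day 0 it stood at 9.04, 14.8, 56.1 and 7.94 CPM in collagen, against 12.45, 10.3, 72.2 and 6.82 CPM in Matrigel. At day 3 it stood at 11.3, 7.92, 31.2 and 3.84 CPM in collagen, against 2.34, 10.6, 34.5 and 2.39 CPM in Matrigel. Mouse 3 was the highest in every group, and the matrices overlapped on both days. At day 5 the level was 7.51, 6.54 and 14.9 CPM in collagen, against 0.923 and 2.41 CPM in Matrigel, where it rests on 3 and 5 UMIs. The groups did not overlap, and mice 2 and 3 were at 7.09 and 6.19 times their Matrigel level (+2.66 (log2), SE 1.67, edgeR adjusted p = 0.580; 0.0156 with the block).

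Within Matrigel Procr was lower at day 3 than at day 0 in 3 of 4 mice (-1.01 (log2), SE 0.88, edgeR adjusted p = 0.382; 0.0147 with the block) and lower at day 5 than at day 3 in 2 of 2 mice (-3.03 (log2), SE 1.65, adjusted p = 0.368; 0.00338 with the block). With all mouse-labelled cells the first of these was -2.23 (log2, adjusted p = 0.0136). The change of the matrix difference between day 0 and day 5 was +2.89 (log2, adjusted p = 0.485; 0.0130 with the block). Macrophage-like cells, which were left out, had 1012 CPM of Procr, fibroblast-like cells 175 CPM and dendritic cell-like cells 198 CPM. In the day 0 sums of mouse 3 the 9 macrophage markers together stood at 15.4 CPM in collagen and 7.79 CPM in Matrigel, the lowest of the 4 mice in both matrices. At day 5 they stood at 6.19 to 8.16 CPM in collagen and at 3.75 to 4.33 CPM in Matrigel, where Adgre1, C1qb, C1qc and Tyrobp were at 0, and their part in the day 5 difference was not tested.

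After thinning, most single cells showed few of the 9 transcripts together. These counts depend on the thinning depth, and more cells had a UMI without thinning, as given above for Plet1, Kit and Cd44. Of 6705 cells thinned to 2000 UMIs, 20.6% had a UMI of none of the members, 33.0% of 1, 27.02% of 2, 13.6% of 3, 4.64% of 4, 1.06% of 5 and 0.194% (13 cells) of 6. Co-detection of a pair was measured within each sum as the log2 odds ratio of both genes in the same cell, with 0.5 added to each count, so that 0 means independence. The values are a description over sums that share mice and pools. They cover sums in which at least 1 cell with both genes was expected. Without thinning, 35 of the pair values moved by more than their SD over sums. Counting each pair once per alternative setting, with all mice kept, 37 values moved and 298 did not. Unthinned values are given below for some pairs only, and the other pairs are not shown to hold without thinning.

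Cd44 and Cd24a, the pair used in sorting, were found together about as often as independence gives. Both were found in 460 of 6668 cells, where 467 were expected from the separate shares, and the mean log2 odds ratio was -0.03 ± 0.69 (SD over 20 sums, 10 above 0). Without thinning the same mean was 1.397, above 0 in 21 of 21 sums. Cd44 was found more often than expected with Aldh1a3 (438 cells against 371 expected, 0.63 ± 0.61, above 0 in 15 of 18 sums) and with Ly6a (585 against 513, 0.47 ± 0.46, 17 of 20). Its odds ratio with the luminal keratin gene Krt8 was 0.54 ± 0.72 (17 of 20 sums above 0), and with the basal keratin gene Krt14 it was 0.07 ± 0.47 (10 of 20).

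Ly6a and Ly6d, the 2 members of the Ly6 family, were found in the same cells more often than independence gives. Both were present in 503 of 6705 cells against 405 expected (0.93 ± 0.77, above 0 in 18 of 21 sums). Ly6d was also found more often with Epcam, an adhesion protein of epithelial cells (1.20 ± 0.86, 19 of 21), and with Krt14 (0.96 ± 1.07, 19 of 21). With Vim, the intermediate filament gene of mesenchymal cells, it was found in 257 cells against 437 expected (-0.94 ± 0.90, above 0 in 3 of 21 sums). Plet1 went the same way with Vim (-0.76 ± 0.81, 2 of 19 sums above 0), but that value was 0.01 without thinning. Procr stood opposite: it was found less often with Epcam (101 cells against 134 expected, -1.84 ± 1.17, above 0 in 1 of 16 sums) and with Krt14 (-1.25 ± 1.09, 2 of 16). Macrophage-like cells carried far more Procr than the sums, as given above, and the part of any such cells left in the sums was not tested. Ly6a was found less often with the proliferation gene Mki67 (-0.54 ± 0.95, above 0 in 7 of 21 sums), with the sign turned without thinning (0.48). Cd24a was found more often with Krt14 (0.57 ± 0.59, above 0 in 19 of 21 sums).

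**Figure D3:**
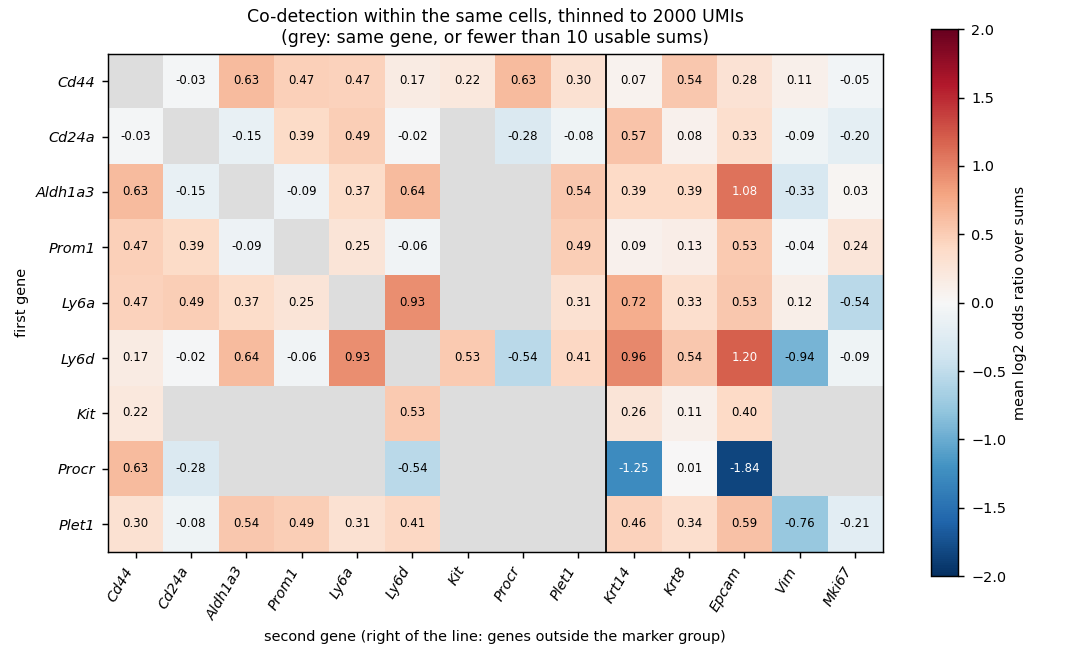
Mean log2 odds ratio of finding 2 genes in the same thinned cell, for the 9 members against each other and against Krt14, Krt8, Epcam, Vim and Mki67; grey cells are a gene with itself or pairs with fewer than 10 sums. Procr with Epcam is the lowest shown (-1.84), Ly6d with Epcam reaches 1.20, and Cd44 with Cd24a is near 0 (-0.03).

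Across clusters of cells the members peaked in different places, given here as a description since the genes also shaped the clusters. Cluster 23, of 111 cells led by the cornified envelope genes Crct1, Sprr1a and Lce3c, had the highest Aldh1a3 (702 CPM) and Ly6d (1907 CPM) levels and a Plet1 level of 887 CPM. Cluster 16, of 209 cells with a median of 8351 UMIs and led by the early response genes Cyr61 and Dusp1, had the highest Plet1 (1034 CPM), Cd24a (329.6 CPM) and Prom1 (105 CPM) levels. Cluster 13, led by Igfbp5, Trf and the casein gene Csn1s1 with the alveolar factor Elf5, had the highest Kit level (27.4 CPM) and the lowest Cd44 level (75.8 CPM). Kit stood close to that in clusters 5 and 16, 2 clusters of few UMIs, at 26.5 and 24.0 CPM. The thinned share of cells with a Kit UMI was 4.78% in cluster 5 and 4.12% in cluster 13. Cluster 14, of which 94.2% came from mouse 2, had the highest Ly6a level (780.1 CPM) and also the highest Cd44 level (335 CPM). The highest Procr levels were in cluster 11 (45.1 CPM, 96.6% of its cells from mouse 3) and cluster 9 (43.2 CPM). Cluster 9 had the lowest Epcam (222 CPM) and the highest Vim (2004 CPM) levels and the lowest Aldh1a3 (20.1 CPM) and Prom1 (8.30 CPM) levels. Cluster 10, led by the basal genes Acta2 and Krt5 with 7861 CPM of Krt14, had no Kit UMI and the lowest Plet1 level (28.0 CPM).

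**Figure D4:**
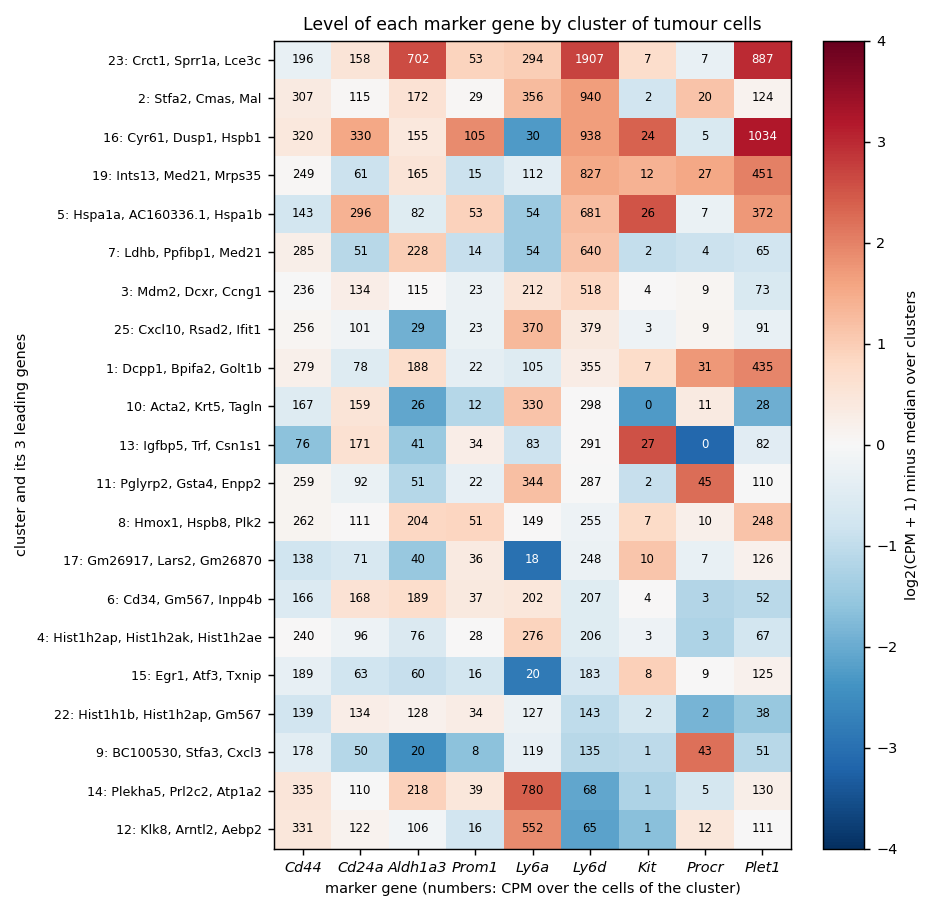
Level (CPM, printed) of the 9 members in the 21 clusters of at least 50 kept cells, with colour showing log2(CPM + 1) minus the median over clusters. Cluster 23 holds the highest Ly6d (1907 CPM) and Aldh1a3 (702 CPM), and cluster 16 the highest Plet1 (1034 CPM).

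The 4T1 line, which grew on plastic in the same pools, was used as a second tumour population, on CPM without TMM scaling. Its 313 cells had 94.4 CPM of Cd24a, 51.0 of Cd44, 26.3 of Plet1, 17.1 of Procr, 5.29 of Ly6a, 3.65 of Ly6d, 2.67 of Aldh1a3, 0.656 of Prom1 and 0.041 of Kit, the last resting on 1 UMI. The levels of Cd44, Aldh1a3, Ly6a, Ly6d, Prom1, Kit and Plet1 were below those of each of the 21 tumour sums, while Cd24a and Procr lay within the range of the sums. The line has 1 sum per pool, and no test was made.

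Genes that act with the members are given as counts within gene lists, without the mouse block unless it is named. Without the block, 7.06%, 0.205% and 0.463% of all genes were called between the matrices at days 0, 3 and 5. Between day 0 and day 3 the share was 19.5% in collagen, and between day 3 and day 5 it was 1.15% in collagen and 2.5% in Matrigel. For the change of the matrix difference by day 5 it was 1.15%. Of the CD44 partner genes, Has2, a hyaluronan synthase, was higher in collagen at day 0 (+1.30 (log2), edgeR adjusted p = 0.0302), as 1 of 10 tested genes, and none was called at day 3 or day 5. With the block 1 was higher and 2 lower at day 0, 1 higher at day 3 and 2 higher at day 5. The block called 24.3%, 4.44% and 6.27% of all genes on those days. The matrix difference of Msn, the cytoskeletal linker moesin that binds CD44, changed by +1.82 (log2) between day 0 and day 5 (adjusted p = 0.0457), as 1 of 10. In Matrigel 4 of these 10 rose and 2 fell between day 0 and day 3, where 39.1% of all genes were called, among them the hyaluronan receptor Hmmr (+1.36 (log2)), the ligand Spp1 (+1.22), the linker Ezr (-0.60) and the synthase Has1 (-2.58). In collagen Spp1 alone rose over that interval (+1.30 (log2), adjusted p = 0.0219). The block called 1 higher and 1 lower there, with 37.7% of all genes called.

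Of 7 tested genes of the PROCR and protein C pathway, Pros1, the protein S cofactor, was higher in collagen at day 0 (+1.56 (log2), edgeR adjusted p = 0.0303). It was the only 1 of the 7 called there, where 7.06% of all genes were called. In Matrigel 1 rose and 4 fell between day 0 and day 3 (39.1% of all genes called), with F3 (tissue factor) at -3.00 (log2), the thrombin receptor F2r at -1.41 and Pros1 at +1.99. The median of the list was -1.50 (log2), beside -0.01 for all genes tested. In collagen F3 (-1.90 (log2)) and F2r (-1.18) fell over that interval and none of the 7 rose. The block called 1 higher and 3 lower there, with 37.7% of all genes called. Between day 3 and day 5 F2r rose in collagen (+1.24 (log2), edgeR adjusted p = 0.0298) and in Matrigel (+1.64, adjusted p = 0.0184).

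Of 10 KIT pathway genes, Plcg1, a phospholipase downstream of the receptor, was higher in collagen at day 0 (+0.63 (log2), edgeR adjusted p = 0.0434). It was the only 1 of the 10 called there, where 7.06% of all genes were called. In Matrigel 2 of the 10 rose and 3 fell between day 0 and day 3, a share near the 39.1% of all genes. Among them were the phosphatase Ptpn6 at +1.66 (log2) and the transcription factor Gata2 at -2.18. Of 11 retinoic acid genes, Rdh10, which makes the substrate of ALDH1A3, had a matrix difference that changed by +1.38 (log2) between day 0 and day 5 (adjusted p = 0.0432). Of 14 other Ly6 family genes none was called between the matrices on any day without the block. With it 1 was higher and 2 lower at day 0, 1 higher at day 3 and 1 higher at day 5, against 24.3%, 4.44% and 6.27% of all genes. Plaur, the urokinase receptor, fell between day 0 and day 3 in collagen (-1.52 (log2)) and in Matrigel (-2.94), and Ly6e rose in both (+0.85 and +0.83).

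Of 11 luminal progenitor genes none was called between the matrices at day 0 or day 3, and Itga2, a collagen-binding integrin, was higher in collagen at day 5 (+2.94 (log2), edgeR adjusted p = 0.0411). With the block 2 were higher at day 0, 2 lower at day 3, and 1 higher and 3 lower at day 5. The block called 24.3%, 4.44% and 6.27% of all genes on those days. In Matrigel the alveolar factor Elf5 rose (+3.42 (log2)) and the casein gene Csn3 fell (-2.80) between day 0 and day 3, as 2 higher and 1 lower of 11 (39.1% of all genes called), and in collagen Csn3 (-3.94) and Wfdc18 (-1.99) fell. Of 14 basal and stem cell genes, Bcl11b was higher in collagen at day 0 (+1.50 (log2), adjusted p = 0.0449), with a list median of +0.84 beside +0.01 for all genes. That is 1 of 14 called, near the 7.06% of all genes called there. Of 8 hormone-sensing genes, Esr1, the oestrogen receptor, was higher in collagen at day 0 (+2.11 (log2), adjusted p = 0.0434), and Esr1 (+2.01) and Prlr (+3.55) rose in Matrigel between day 0 and day 3. The shares of all genes called were 7.06% in the first comparison and 39.1% in the second. Of 9 pan-epithelial genes none was called between the matrices on any day without the block. With the block 3 were lower in collagen at day 0, 1 at day 3 and 2 at day 5, beside those same shares of all genes. Without mouse 2 or mouse 3 no gene at all was called between the matrices at day 5, and without mouse 1, 2 or 3 none was called for the change of the matrix difference by day 5, so the calls of Itga2, Msn and Rdh10 are lost there. Between the matrices at day 0 the calls over all genes fell from 931 to 133, 81 and 266 without mice 1, 2 and 3. For list genes called at day 0 or in the other comparisons, values without single mice are not given here, so those calls are not shown to hold.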

How the data were processed

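Single-cell RNA of 3 pools was measured with the 10x 3' version 2 kit and MULTI-seq barcodes, as the labels' protocols state. Tools (Cell Ranger 3.0.2 and Scanpy 1.4.4) and the build (GRCm38, also written mm10) are listed with no roles in the submitters' processing notes. The authors deposited raw UMI counts per cell and gene, which were used as deposited. The deposited annotation gives each cell's total count and its mitochondrial fraction, never above 9.99 percent, together with its day, matrix and mouse as other, non-numeric columns. In that annotation the day label D1 was taken as day 0, the only day left, which is an inference.

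Cells were clustered with scanpy 1.11.5 (2000 variable genes, 30 components, 15 neighbours, Leiden resolution 1.0; 29 clusters). Clusters were named from marker lists; no doublet caller was run. Dendritic cell-like cells were left out beside the 3 planned classes. An unnamed cluster of 43 cells led by immunoglobulin genes was kept, and leaving it out changed no member's call. Sums of the counts over the cells of a mouse in 1 matrix on 1 day were tested in edgeR 4.0.16 (TMM, filterByExpr, 6 group means in 1 fit); DESeq2 1.42.0 was an alternative. CPM of the members in the sums is per 1000000 UMIs after TMM scaling. CPM of marker lists, clusters and other cell classes is per 1000000 UMIs without that scaling. SEs were taken as the absolute log2 fold change divided by the square root of F. Shares were compared by exact permutation over mice. The clustering and the tests were tested on simulated data. Replicates are mice. The deposited annotation gives each mouse a number, used in both matrices, so same-numbered sums come from the same animal; deviations from the group means correlated by a median of 0.305 (0.0723 to 0.685) between sums of 1 mouse and -0.108 between mice. Sums of 1 group differed by more than counting noise (chi-square divided by its degrees of freedom was 7.51 to 64.4 over 28 pairs), so none was counted as a repeat. Thinning left out 84, 12 and 1 cells in collagen and 140, 19 and 1 in Matrigel at days 0, 3 and 5. Intervals cover counting error only. The members and the gene lists were chosen with earlier results of these data known. Besides the members, up to 4 called genes per list and comparison, those with the smallest p, were eligible to be named, as were the 3 genes whose levels ran most like each member. Results of some genes of these lists are not reported here.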

Additional observations from a re-analysis of the deposited data

Results flagged for a closer look

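Procr in mouse 3 at day 0 stood apart from the other mice in both matrices. It was 56.07 CPM in collagen, where the others were at 7.94 to 14.8 CPM, and 72.16 CPM in Matrigel, where the others were at 6.82 to 12.45 CPM. In each case the gap to the nearest mouse, divided by the range of the group, passed Dixon's 95% critical value for 4 samples. Of 36 groups of 4 mice looked at in this way, 2 were marked, where chance marks about 1 in 20.

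The matrix difference of Cd44 differed between day 0 and day 5, by 1.629 on the log2 scale, in the test of that difference itself (edgeR adjusted p = 0.0382). Day 5 holds 3 mice in collagen and 2 in Matrigel, and the day is also the pool.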

How the results depend on the processing

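Counts of members called are given. Between collagen and Matrigel at day 0 the count of 1 became 0 with all mouse-labelled cells and 0 without the clusters of few UMIs. At day 5 the count of 0 became 1 with DESeq2, 1 with sums of at least 10 cells and 1 with only the groups of day 5 fitted. In collagen between day 0 and day 3 the count of 1 became 2 with DESeq2 and 2 with sums of at least 10 cells, and between day 3 and day 5 the count of 0 became 1 with DESeq2. The change of the matrix difference by day 3 had a count of 0, and 1 with DESeq2. The cause of these changes was not tested. Scaling by RLE size factors changed no count of members. The settings that keep the dendritic cell-like cells, leave out the clusters of few UMIs or the immunoglobulin-led cluster, or fit the groups of a single day were chosen after seeing the data.

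The mouse block, a paired analysis, gave larger counts. At days 0 and 5 it called 3 and 2 members between the matrices, in collagen 4 by day 3 and 2 from day 3 to day 5, in Matrigel 6 and 2, and for the change of the matrix difference 3 by day 3 and 4 by day 5. With the block the common dispersion was 0.0256, against 0.0853 without. The block gained 20 member calls and lost 0. Calls over all genes rose with it too, from 931 to 3205 between the matrices at day 0 and from 151 to 1391 in collagen from day 3 to day 5. The gain is therefore not particular to the members. In the 27 tests of shares of cells no p passed after adjustment, and pairing the mice, where the smallest exact p is 0.125, changed no call.

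Leaving out each mouse in turn gave counts of 0 to 1 between the matrices at day 0, 0 to 0 at day 3 and 0 to 1 at day 5. In collagen the counts were 1 to 2 by day 3 and 0 to 0 from day 3 to day 5, and in Matrigel 1 to 2 and 0 to 1. For the change of the matrix difference they were 0 to 0 by day 3 and 0 to 1 by day 5. No member's fold change turned its sign where it was called. Day 5 depth limits what can be seen, with 38 and 51 cells in the Matrigel sums.

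Counts over all genes moved by over 1.5 times under several settings. The change of the matrix difference by day 3 called 5 genes, none of them higher, against 15 with RLE size factors (4 higher), 164 with DESeq2 and 699 with the block, and 0 with all mouse-labelled cells. It called 18 genes with sums of at least 10 cells, 23 with cells of at least 5000 UMIs, 17 without the 4T1 clusters, 14 without the clusters of few UMIs, 1 with the dendritic cell-like cells kept and 0 without the expression filter. Between the matrices at day 0, 931 genes were called, against 286 with only the groups of day 0 and 1421 with DESeq2, and at day 3 27, against 0 with only the groups of day 3. With sums of at least 10 cells the calls were 183 against 61 between the matrices at day 5, 531 against 330 in Matrigel from day 3 to day 5 and 358 against 152 for the matrix difference by day 5. Without the expression filter those last comparisons gave 218 and 85, and collagen from day 3 to day 5 gave 94 against 151. Between the matrices at day 0 the count was 133 without mouse 1, 81 without mouse 2 and 266 without mouse 3. At day 5 the count of 61 was 1, 0 and 0 without mouse 1, 2 and 3 and 281 without mouse 4. For the matrix difference by day 5 the count of 152 was 0 without mouse 1, 2 or 3 and 259 without mouse 4. In Matrigel from day 3 to day 5 the count of 330 was 136, 14, 32 and 602 without mice 1 to 4, and in collagen the count of 151 was 23, 25, 26 and 349. Between the matrices at day 3 the count of 27 was 1, 3, 7 and 61. In collagen by day 3 the count of 2575 was 1339, 991 and 1536 without mice 1 to 3, and in Matrigel the count of 5151 was 3290 without mouse 2. Co-detection values of 35 pairs moved without thinning and of 2 pairs with thinning to 5000 UMIs.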

Other observations

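Genes whose levels ran most like each member over the 21 sums are given as a description, by Pearson's r of log2 CPM among 5926 genes, with no p, since the sums share mice, matrices, pools and depth. For Cd44 they were Tpst2 (r = 0.933), Plec (0.885) and Ereg (0.881), and for Plet1 Ythdf1 (0.914), Ccnt1 (0.911) and Riok2 (0.910). For Procr they were Ier3 (0.896), Stam2 (0.887) and Apex2 (0.872), and for Kit Psat1 (0.843), Snx5 (0.840) and Hnrnpa1 (0.839). For Aldh1a3 they were Plau (0.823), Chic2 (0.818) and Anxa11 (0.813), for Ly6a Ap2a1 (0.858), Cd151 (0.857) and Idh3b (0.855), and for Prom1 Ip6k2 (0.860), Rprd1a (0.841) and Macc1 (0.817). The closest values were lower for Ly6d, with Sbno2 (0.738), March6 (0.736) and March7 (0.712), and for Cd24a, with Rhobtb3 (0.754), Dynlt3 (0.687) and Evl (0.676).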
